A study of Mus musculus with 4 samples.

Results

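Granzyme and innate lymphoid effector genes were followed as a set of 9 genes, Gzma, Gzmb, Nkg7, Klrd1, Ccl5, Il2rb, Ifitm1, Ifitm2 and Plac8, in droplet scRNA Seq data from mouse embryonic thymic lobes. They were taken by name from the 27998 genes in the gene table, and all 9 were present in each of the 4 libraries. The tissue was thymus from E13 to 13.5 embryos of Tbx1+/neo2 intercrosses, in which a neomycin cassette sits in a Tbx1 intron on the neo2 allele, so that homozygotes still make some wild-type transcript. Pregnant mice received ethanol in PBS (the carrier), minoxidil or PGE2, and there was 1 library each of Tbx1+/+ carrier, Tbx1neo2/neo2 carrier, Tbx1neo2/neo2 minoxidil and Tbx1neo2/neo2 PGE2 embryos. Below, values for the libraries are given in that order, and the last 2 are called the minoxidil and PGE2 libraries. Hypoplastic lobes were pooled, the number of embryos behind a library is not known and the lobes were digested with trypsin, so each library is a single sample with no measure of the spread between embryos.

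Cytotoxic lymphocytes kill target cells by releasing granules that hold perforin and granzymes, a family of serine proteases. Gzma encodes the trypsin-like granzyme A, Gzmb the granzyme that cuts after aspartate, and Nkg7 a membrane protein of these granules. Klrd1 encodes CD94, the partner chain of NKG2 receptors on NK cells, Il2rb the beta chain shared by the receptors for IL-2 and IL-15, and Ccl5 a chemokine secreted by activated lymphocytes. Ifitm1 and Ifitm2 encode small membrane proteins induced by interferon, and Plac8 a small cysteine-rich protein found in myeloid and lymphoid cells. In the fetal thymus, Kit marks the immature progenitors that enter the lobe, Rag1 is switched on as they commit to the T lineage, and NK and other innate lymphoid cells arise from related progenitors. Ptprc encodes CD45, which is carried by hematopoietic cells other than mature erythroid cells.

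In the mm10 build (GRCm38), the granzyme genes lie apart, Gzma at chr13:113093825-113100981 and Gzmb at chr14:56258838-56262260, both on the minus strand. Nkg7 is at chr7:43437073-43438249 on the plus strand. On the same chromosome, Ifitm2 (chr7:140954837-140955987, minus strand) and Ifitm1 (chr7:140967221-140969825, plus strand) are divergent neighbors in the Ifitm cluster with 11233 bases between them. Klrd1 is at chr6:129591782-129598775 (plus), Ccl5 at chr11:83525778-83530518 (minus), Il2rb at chr15:78479256-78495271 (minus) and Plac8 at chr5:100553725-100572245 (minus).

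The stretch of 250 bases before the start site was read for the 6 members present in the RefSeq promoter table (GRCm38.p6), namely Gzma, Gzmb, Nkg7, Ifitm1, Ifitm2 and Plac8. The windows of 4 of them are shown because they hold letters that Runx or T-box factors, both regulators of lymphocyte genes, are known to bind. Capitals mark TGTGGT or its complement ACCACA (Runx) and AGGTGT or its complement ACACCT (T-box), searched on both strands. The windows are chr13:113100982-113101231 for Gzma, chr14:56262335-56262584 for Gzmb, chr7:43436888-43437137 for Nkg7 and chr5:100572206-100572455 for the farther of the Plac8 starts, each written 5′ to 3′ on the strand of its gene. Starts are those of the promoter table and differ from the gene bounds given above, so that the Nkg7 window reaches 65 bases and the Plac8 window 40 bases into the annotated gene, the Gzmb window ends 74 bases before it and the Gzma window adjoins it.
Gzma: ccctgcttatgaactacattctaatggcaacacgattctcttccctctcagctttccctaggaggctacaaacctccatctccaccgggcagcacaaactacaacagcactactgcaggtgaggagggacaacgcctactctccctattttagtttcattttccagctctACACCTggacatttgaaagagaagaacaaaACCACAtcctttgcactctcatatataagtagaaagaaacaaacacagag
Gzmb: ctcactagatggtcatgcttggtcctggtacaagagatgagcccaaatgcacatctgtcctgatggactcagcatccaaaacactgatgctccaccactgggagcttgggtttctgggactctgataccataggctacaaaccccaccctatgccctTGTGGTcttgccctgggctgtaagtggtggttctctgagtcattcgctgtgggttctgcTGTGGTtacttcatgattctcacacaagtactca
Nkg7: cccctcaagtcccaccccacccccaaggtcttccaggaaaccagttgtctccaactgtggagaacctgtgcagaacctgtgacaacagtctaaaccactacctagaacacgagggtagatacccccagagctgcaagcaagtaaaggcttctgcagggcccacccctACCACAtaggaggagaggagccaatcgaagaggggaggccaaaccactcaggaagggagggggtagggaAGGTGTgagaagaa
Plac8: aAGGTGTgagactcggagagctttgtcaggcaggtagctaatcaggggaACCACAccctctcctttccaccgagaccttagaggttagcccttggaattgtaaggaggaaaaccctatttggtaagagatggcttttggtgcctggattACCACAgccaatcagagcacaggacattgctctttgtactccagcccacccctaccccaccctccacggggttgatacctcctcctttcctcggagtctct

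The Runx letters were found in 4 of the 6 member genes and in 14.0% of all 32851 windows of this length. T-box letters were found in 3 of the 6 and in 11.8% of all windows. In Gzma, the Runx match began 50 bases and the T-box match 80 bases before the start of the table. Nkg7 had its Runx match at 83 and its T-box match at 14 bases, the latter inside the annotated gene, Gzmb had Runx matches at 93 and 34 bases, and Plac8 had Runx matches at 201 and 101 bases and a T-box match at 249 bases. Among the other motifs searched on both strands, the E-box CAGGTG occurred in 17.2% of windows and in Gzma alone of the members, where 1 of its 2 matches overlaps the T-box letters. The Ets letters GGAAGT occurred in 19.7% of windows and in Ifitm2, the GATA letters AGATAA in 9.99% of windows and in no member, and the interferon-stimulated response element in 2.98% of windows and in Ifitm2 and Gzma. All 250 bases of the Ifitm1 window, and of the window at the other Plac8 start, lie inside the annotated gene. The Ifitm2 window reaches 26 bases into its gene. The lack of a match in Ifitm1 therefore covers that window only. Member counts are by gene, with more than 1 window for Plac8, whereas the shares are by window. A match describes the letters in these windows and is not evidence of binding.

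The libraries held 292687940, 194023208, 151740600 and 156363845 UMIs, and 11474, 10683, 3201 and 4152 cells were kept, whose median depths were 21125, 14108, 41084 and 34790 UMIs. Cells were put in a class by summed markers, and within the lymphoid class 1327, 548, 437 and 892 cells had at least 1 Ptprc UMI. The subsets below are all drawn from these cells, and each is set by at least 1 UMI of the gene that names it, so a cell can be in more than 1 subset. Rag1-positive cells numbered 602, 286, 300 and 688, Klrd1-positive cells 137, 42, 32 and 56, and Kit-positive cells 1032, 394, 403 and 635. Of 31105 barcodes, 99 occurred in more than 1 library. The list of the gate against granulocytes held both Mpo, a gene of early myeloid progenitors, and S100a9, a granulocyte gene. Of the cells in the gate, 87.3% to 94.9% had Mpo and between 1.40% and 19.3% had S100a9. Since Mpo helped to set the gate, its share cannot tell early progenitors from granulocytic cells. Results were therefore also computed with a granulocytic list without Mpo and Elane, an alternative chosen after the data had been seen, which raised the Ptprc-positive cells to 1825, 686, 519 and 1044.

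Levels are UMIs scaled to the total UMIs of the cell group (CPM), and shares are cells with at least 1 UMI. Intervals at 95% are exact Poisson for CPM and Clopper-Pearson for shares and cover counting error only. With a single library per condition, no test across embryos could be made. A member was called higher or lower in a comparison where the levels differed at least 1.5-fold and the CPM intervals were apart, a level of 0 being set at a floor of 3 counts. Since libraries differ in depth, shares were also read after thinning every cell to 5000 UMIs.

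Gzma, Nkg7, Ifitm1, Ifitm2 and Plac8 were each detected in at least 96.2% of Rag1-positive cells of every library without thinning, whereas Klrd1, Ccl5 and Il2rb were at or near background there. Gzma in Rag1-positive cells stood at 4462, 5508, 4288 and 4764 CPM, with 93.5%, 97.9%, 95.3% and 98.0% of thinned cells positive. The Gzma levels of these 4 libraries lay within 1.28-fold of one another. Nkg7 was at 275, 288, 254 and 253 CPM, Ifitm1 at 6092, 6121, 6119 and 4309 CPM, Ifitm2 at 2999, 2975, 2874 and 2444 CPM and Plac8 at 1947, 1790, 1692 and 1509 CPM. The PGE2 library was the lowest for each of these 4 genes, at levels within 1.42-fold of the highest library.

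Gzmb was found in fewer of the Rag1-positive cells than Gzma or Nkg7. Nkg7 was in 69.0% to 71.3% of the thinned cells. The level of Gzmb was 206, 182, 173 and 76.2 CPM, and it was detected in 40.1%, 37.1%, 31.7% and 20.4% of thinned cells. Without thinning, 76.1%, 59.8%, 71.7% and 46.9% of the cells had a Gzmb UMI. In erythroid cells, which should lack it, thinned shares were 0.433%, 0%, 1.43% and 0%, at median depths of 13594, 12109.5, 21386 and 21991 UMIs against 39664, 32359, 68367 and 47429 UMIs in Rag1-positive cells. Klrd1 in Rag1-positive cells was at 0.387, 0.212, 0.476 and 0.150 CPM, Ccl5 at 2.20, 1.17, 2.0 and 0.987 CPM and Il2rb at 0.155, 0.212, 0.238 and 0.0598 CPM, and none of the 3 was found in more than 1.51% of thinned cells.

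**Figure D1:**
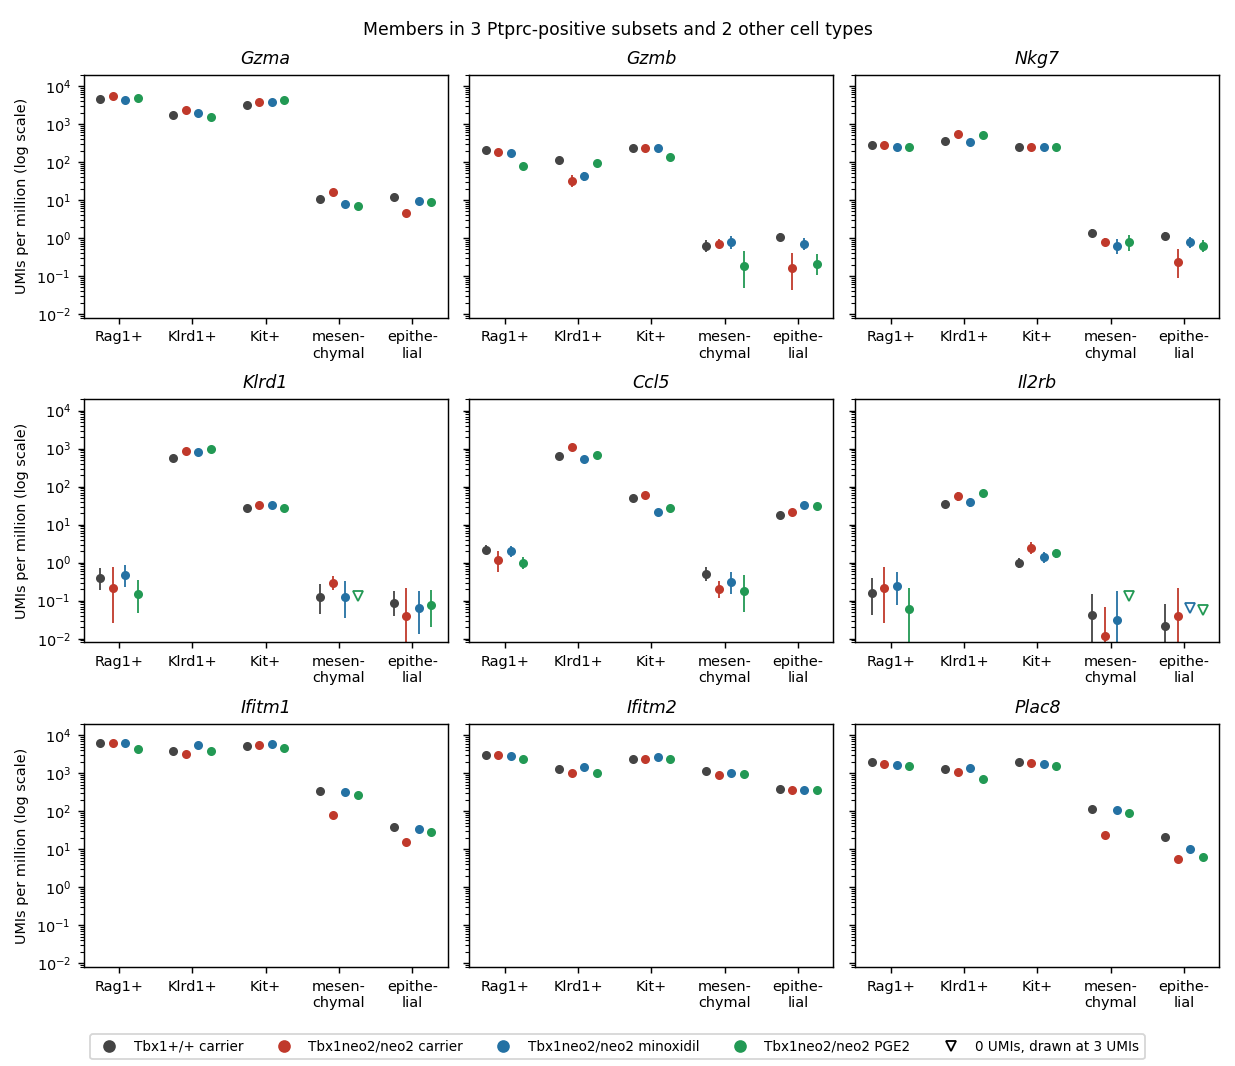
Level of each of the 9 members in CPM (log axis) in the Rag1-positive, Klrd1-positive and Kit-positive cells and in the mesenchymal and epithelial cells of the 4 libraries. Points are libraries (by colour), bars are 95% Poisson intervals for counting error and open triangles mark 0 UMIs, drawn at the level of 3 UMIs; Gzma sits between 4288 and 5508 CPM in Rag1-positive cells, while Ccl5 and Il2rb are at most 2.20 and 0.238 CPM there and at least 549 and 35.7 CPM in Klrd1-positive cells.

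Klrd1-positive cells were 6.86% (5.55 to 8.38), 6.81% (4.84 to 9.27), 4.58% (2.82 to 6.98) and 5.29% (3.91 to 6.98) of the Ptprc-positive cells after thinning, and all 4 intervals overlapped. Unthinned shares were 10.3%, 7.66%, 7.32% and 6.28%. The other subsets were not as even, with Rag1-positive shares of 16.1%, 25.6%, 29.7% and 50.1% and Kit-positive shares of 28.8%, 29.7%, 33.4% and 20.7% after thinning. Unthinned, these shares were 45.4%, 52.2%, 68.6% and 77.1% for Rag1 and 77.8%, 71.9%, 92.2% and 71.2% for Kit.

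The Klrd1-positive cells were checked against NK genes. Klrk1, the activating receptor NKG2D, was at 41.7, 66.2, 64.7 and 117 CPM in them, and Tbx21, the T-bet factor of NK and type 1 innate cells, at 15.6, 30.6, 17.9 and 21.5 CPM. Ncr1, which encodes NKp46 and defines NK cells and some innate lymphoid cells, was at 14.4, 36.6, 0 and 47.9 CPM. It was therefore not detected in the 32 cells of the minoxidil library, and Prf1, the perforin gene, was near background throughout at 1.20, 0.988, 0.744 and 0.538 CPM. Genes of dendritic cells were also present, with a summed level over the 8-gene list of 1048 to 1580 CPM in Klrd1-positive cells against 24.2 to 67.2 CPM in Rag1-positive cells. Of these 8 genes, 1 to 3 were at 0 in the Klrd1-positive cells of a library, and the part of dendritic cells in the values of this subset was not tested. The subset is therefore called by its gene.

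In Klrd1-positive cells, the chemokine Ccl5 was at 639, 1083, 549 and 678 CPM and was found in 51.1%, 54.8%, 50% and 62.5% of cells. A single cell held 12.4%, 24.5%, 40.0% and 16.9% of these Ccl5 UMIs. Il2rb was at 35.7, 55.3, 39.4 and 69.4 CPM, in 26.3%, 47.6%, 31.2% and 58.9% of cells. Gzma was found in fewer of them than of the Rag1-positive cells, at 55.5%, 66.7%, 68.8% and 62.5% without thinning, with levels of 1682, 2370, 1891 and 1546 CPM. Nkg7 stood at 354, 533, 328 and 523 CPM and Plac8 at 1325, 1053, 1350 and 699.9 CPM. Gzmb was at 111, 32.6, 42.4 and 93.1 CPM, of which 31.8%, 45.5%, 59.6% and 87.9% lay in 1 cell, so its level in this subset rests on few cells.

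Klrd1-positive Rag1-negative cells were compared with Rag1-positive Klrd1-negative cells inside each library, both taken as groups set by these genes and not as cell types. Klrd1 itself set the groups and was left out, and 8 members were tested. Gzma, Gzmb and Ifitm2 were called lower in the Klrd1-positive cells in all 4 libraries, Plac8 in 3 and Ifitm1 in 2. Ccl5 and Il2rb were called higher in all 4. A gene entered with at least 20 UMIs over both groups, and Il2rb, with 4, 2, 5 and 2 UMIs in the Rag1-positive cells, and Ccl5 of the Tbx1neo2/neo2 carrier library, with 11, entered only through the Klrd1-positive cells, so their direction was fixed by this minimum and is a description. By library, 2, 3, 2 and 3 members were called higher and 5, 5, 3 and 4 lower, where 12.1%, 9.22%, 11.3% and 11.8% of all genes tested were called higher and 7.95%, 8.88%, 11.6% and 12.4% lower.

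The differences for Ccl5 and Il2rb were the greatest in the set. Ccl5 was at 703, 1195, 669.9 and 735 CPM in Klrd1-positive Rag1-negative cells and at 2.15, 1.18, 1.59 and 0.961 CPM in Rag1-positive Klrd1-negative cells. The log2 ratios were 8.35, 9.99, 8.72 and 9.58. Il2rb was at 39.3, 61.1, 48.7 and 75.4 CPM against 0.157, 0.214, 0.241 and 0.0601 CPM, with log2 ratios of 7.97 (6.58 to 9.87), 8.15 (6.23 to 11.2), 7.66 (6.35 to 9.34) and 10.29 (8.41 to 13.4). No library overlapped between the 2 kinds of cells for either gene. The share of all genes separated in this way was not computed, so this too is a description.

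Gzma ran the other way in each library, with 1356, 2120.0, 1694 and 1245 CPM in Klrd1-positive Rag1-negative cells and 4456, 5515, 4307 and 4762 CPM in Rag1-positive Klrd1-negative cells. The log2 ratios were -1.72, -1.38, -1.35 and -1.94, that is, 3.29, 2.60, 2.54 and 3.83-fold lower. For Gzmb, levels of 109, 36.0, 11 and 10.52 CPM stood against 207, 184, 173 and 71.9 CPM, with log2 ratios of -0.92, -2.36, -3.97 and -2.77. Ifitm2 had log2 ratios of -1.39, -1.78, -1.16 and -1.37, and Plac8 of -0.64, -0.87, -0.21 and -1.36, the third of which was not called. Ifitm1 was called lower in both carrier libraries, at -0.72 and -0.95, and was not called in the minoxidil (-0.14) and PGE2 (-0.28) libraries. Nkg7, with 369, 570.3, 354 and 543 CPM against 276, 289, 254.5 and 253 CPM, was called higher in the Tbx1neo2/neo2 carrier (0.98) and PGE2 (1.10) libraries and had log2 ratios of 0.42 and 0.48 in the other 2. Of these calls, 5 were lost under an alternative. In the Tbx1+/+ carrier library, Gzmb was lost at a mitochondrial limit of 5% (-0.15), Ifitm1 with at least 2 UMIs of the subset gene (-0.53), which leaves Ifitm1 called in 1 library, and Plac8 under 3 of 13 alternatives (up to -0.43). Ifitm2 of the minoxidil library was lost with thinned gates (-0.49), and Nkg7 of the Tbx1neo2/neo2 carrier library with thinned gates and among Ptprc-positive cells of any class (down to 0.16).

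**Figure D2:**
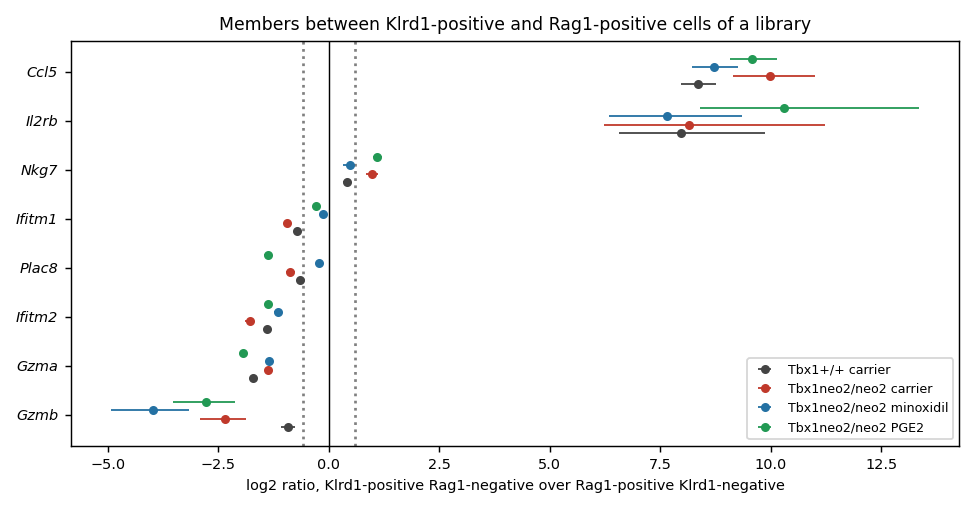
Log2 ratio of the level in Klrd1-positive Rag1-negative cells over that in Rag1-positive Klrd1-negative cells for 8 members, with 1 point per library, bars for the 95% interval of counting error and dotted lines at a 1.5-fold difference. Ccl5 and Il2rb lie above 7.6 and Gzma, Gzmb and Ifitm2 below 0 in each library.

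The pathway lists gave the setting of these members in the same comparison, in which the median of all genes tested lay between -0.10 and -0.04 and the shares of all genes called were those given above. Since many genes of the innate lists entered only through the cells in which they were high, these lists are described by their summed levels over all their genes. Those of NK receptors and adaptors summed to 2699, 4289, 3143 and 3473 CPM in Klrd1-positive Rag1-negative cells against 507, 489, 487 and 337 CPM in Rag1-positive Klrd1-negative cells. Among them, Tyrobp, the signaling adaptor DAP12, was at 1171, 1477, 1276 and 1254 CPM against 167, 137, 154 and 68.8 CPM. The granzyme and cytolysis genes other than the members summed to 769, 804, 1124 and 958 CPM against 445, 358, 436 and 332 CPM. Among them, Ctsw, a protease of NK cells and cytotoxic T cells, was at 120.3, 150.5, 158 and 250.1 CPM against 4.70, 3.43, 2.70 and 3.96 CPM. T lineage genes were called lower for 13 of 14, 13 of 14, 12 of 14 and 14 of 14 genes, with medians of -1.81, -2.55, -2.47 and -2.92. Of these, Cd3g, a chain of the CD3 complex, was at 299.8, 422, 419 and 446 CPM against 877, 1298, 954 and 1622 CPM. T lineage genes that entered only through the Rag1-positive cells could only be called lower, so the counts of T lineage genes are a description. Gzma was lower together with Cd3g, and Ccl5 higher together with Tyrobp, in each library. Since Rag1 and Klrd1 set the groups, this too is a description.

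Of the IL-2 and IL-15 pathway genes, 2 of 13, 4 of 12, 2 of 13 and 3 of 13 were called higher and 5, 4, 5 and 4 lower, beside the 12.1%, 9.22%, 11.3% and 11.8% of all genes called higher and the 7.95%, 8.88%, 11.6% and 12.4% called lower. The alpha chain gene Il2ra, a marker of T-lineage commitment, was at 23.5, 15.3, 3.68 and 4.67 CPM in Klrd1-positive Rag1-negative cells and at 131, 175, 144 and 231 CPM in Rag1-positive cells, opposite to Il2rb. The gene of the common gamma chain, Il2rg, was at 92.5, 110.1, 156 and 159.5 CPM against 54.7, 66.2, 78.4 and 67.3 CPM.

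The regulators of NK and innate lymphoid cells summed to 1795, 1937, 2088 and 2218 CPM against 588, 539, 659 and 476 CPM. Id2, an antagonist of E proteins that innate lymphoid cells need, was at 865, 916, 899 and 973 CPM against 51.9, 39.1, 40.6 and 31.6 CPM. LTi and ILC3 genes summed to 741, 677, 1067 and 725 CPM against 126, 137, 143 and 153 CPM, among them Ltb, a subunit of the lymphotoxin ligand, at 484.5, 521, 693 and 517 CPM against 58.4, 78.4, 66.6 and 80.5 CPM. A list of genes for ligands of NKG2 receptors, together with the class I genes H2-D1, H2-K1 and B2m, summed to 1513, 1691, 2206 and 2222 CPM against 442, 367, 443 and 414 CPM. Of these class I genes, H2-D1 was at 414, 468, 616 and 679 CPM against 95.7, 64.0, 98.3 and 77.4 CPM. Interferon response and Ifitm cluster genes other than the members were counted by calls. Of those tested, 7 of 11, 5 of 8, 6 of 10 and 3 of 10 were called higher. Lower calls numbered 2, 1, 1 and 2, beside the shares of all genes given above. Genes that entered only through the Klrd1-positive cells could only be called higher, so these counts are a description. Dendritic genes summed to 1704, 1155, 1857 and 1313 CPM against 63.8, 24.2, 24.4 and 39.2 CPM, with Cd74, the invariant chain of class II molecules, at 960, 595, 1105 and 569 CPM against 20.8, 2.47, 4.53 and 5.92 CPM.

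Among Klrd1-positive cells, several members differed between the ends of the range of Klrd1 UMIs per cell. Cells with 10 or more Klrd1 UMIs numbered 46, 24, 16 and 38, those with 3 to 9 numbered 31, 11, 6 and 6, and those with 1 or 2 numbered 60, 7, 10 and 12. Nkg7 was at 573, 658, 557 and 676 CPM at 10 or more UMIs against 188, 192, 102 and 176 CPM at 1 or 2, and Il2rb at 76.4, 83.3, 83.2 and 95.3 CPM against 7.06, 19.2, 0 and 5.34 CPM. Plac8 ran the other way, at 619, 738, 289 and 139.8 CPM against 2009, 1899, 2642 and 2403 CPM. In these groups, the levels of Nkg7, Il2rb and Plac8 did not overlap between the 2 ends of the Klrd1 range. The share of all genes without overlap between these small groups was not computed. Ccl5 was at 966, 1357, 1122 and 882 CPM against 374, 81.7, 24.5 and 288 CPM, likewise with no overlap. The cells between these ends did not follow one order. Ccl5 was at 494, 1298, 50.9 and 16.5 CPM at 3 to 9 UMIs, in the PGE2 library below the cells with 1 or 2, and Il2rb was at 9.88, 9.83, 0 and 16.5 CPM. Nkg7 was at 237, 511, 167 and 138 CPM there, in the PGE2 library again below the cells with 1 or 2, and Plac8 at 1439, 1121, 1541 and 1201 CPM. Gzma was at 1648, 2947, 2315 and 1631 CPM against 1990, 2206, 1438 and 1981 CPM and showed no common direction, and in the minoxidil library 1 cell held 73.3% of the Gzma UMIs at the upper end. The summed dendritic genes ranged from 59.9 to 1188 CPM at 10 or more, from 2526 to 4655 CPM at 3 to 9 and from 336 to 3543 CPM at 1 or 2 Klrd1 UMIs, and their part in the levels was not tested. Since a cell with more UMIs can also show more Klrd1, these are descriptions of cells ordered by a member of the set.

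How the members changed with T-cell development was read from Klrd1-negative cells ordered as Kit-positive Rag1-negative, Kit-positive Rag1-positive and Kit-negative Rag1-positive. These held 451, 179, 100 and 119 cells, then 509, 197, 280 and 485, then 85, 87, 16 and 199. Gzma was called higher and Gzmb and Ccl5 lower in the last group than in the first in every library. Ccl5, with 3, 1, 2 and 4 UMIs in the last group, entered only through the first, so its direction is a description. Ifitm2 was called higher in both carrier libraries only, and Nkg7, Ifitm1 and Plac8 were called in none. Of the 7 members tested, 2, 2, 1 and 1 were called higher and 2 in each library lower, where 3.21%, 3.14%, 3.08% and 4.85% of all genes were called higher and 4.05%, 8.90%, 5.48% and 12.1% lower.

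Gzma rose from 1922, 2157, 2450.0 and 3056 CPM in Kit-positive Rag1-negative cells over 4272, 5409, 4282 and 4629.7 CPM in Kit-positive Rag1-positive cells to 5852, 5766, 4831 and 5143 CPM in Kit-negative Rag1-positive cells. From first to last, the log2 ratios were 1.61, 1.42, 0.98 and 0.75. Gzmb went down over the same groups, from 261, 279.9, 465 and 342 CPM over 218, 225, 180.4 and 88.5 CPM to 122, 87.4, 12.6 and 24.3 CPM, with log2 ratios of -1.09, -1.68, -5.21 and -3.82. The 2 granzyme genes therefore moved in opposite directions in each library. Gzma was not called in the 3 Tbx1neo2/neo2 libraries when the gates were read after thinning, nor in the minoxidil and PGE2 libraries by the mean of CPM per cell. Gzmb was not called in the Tbx1neo2/neo2 carrier library at a mitochondrial limit of 5% (-0.10), and it was not called in the Tbx1+/+ carrier library with the shortened granulocytic list, with a mitochondrial limit of 5%, among Ptprc-positive cells of any class and with thinned gates.

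Ccl5 was at 51.1, 25.4, 42.0 and 51.1 CPM in Kit-positive Rag1-negative cells and at 1.01, 0.360, 2.10 and 0.465 CPM in Kit-negative Rag1-positive cells. The log2 ratios were -5.67 (-7.95 to -4.11), -6.14 (-11.46 to -3.64), -4.32 (-7.37 to -2.45) and -6.78 (-8.67 to -5.41), with wide intervals from the few UMIs in the later cells. Ifitm2 stood at 1805, 1575, 1905 and 1524 CPM in the first and 3164, 2972, 2277 and 2123 CPM in the last group, with log2 ratios of 0.81, 0.92, 0.26 and 0.48, the second of which fell to 0.50 and was not called with thinned gates. Nkg7 had log2 ratios of 0.45, 0.58, 0.11 and 0.18, and Plac8 of -0.14, -0.23, -0.41 and -0.40. Ifitm1 had 0.50 and 0.31 in the carrier libraries and -0.13 and -0.32 in the minoxidil and PGE2 libraries.

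The order of these cells was checked with genes that did not set it. T lineage genes were called higher in the last group for 11 of 14, 12 of 14, 11 of 14 and 12 of 14 genes, with Cd3g at 1348, 1680, 1015 and 1920 CPM against 184, 284, 321 and 467 CPM. Early progenitor genes were called lower for 8 of 11, 10 of 11, 10 of 11 and 10 of 11. Of the 13 listed, 1 to 3 were at 0 in the last group, Kit among them. NK receptor and adaptor genes summed to 669 to 1114 CPM in the first group and 220 to 416 CPM in the last. The cells with a Klrd1 UMI had been taken out, and 12 to 14 of these 22 genes were at 0 in the last group. Genes that entered only through the first group could only be called lower, so the counts of lower genes here are a description. Of the granzyme and cytolysis genes other than the members, 1 of 5, 2 of 4, 2 of 5 and 2 of 4 were called lower, among them Srgn, the granule proteoglycan serglycin, at 310.5, 248, 269 and 198 CPM against 490.2, 601, 527 and 532 CPM. Genes of mast cells were present in the first group, with summed levels of 219, 1173, 350 and 443 CPM, and their part in the levels was not tested.

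**Figure D3:**
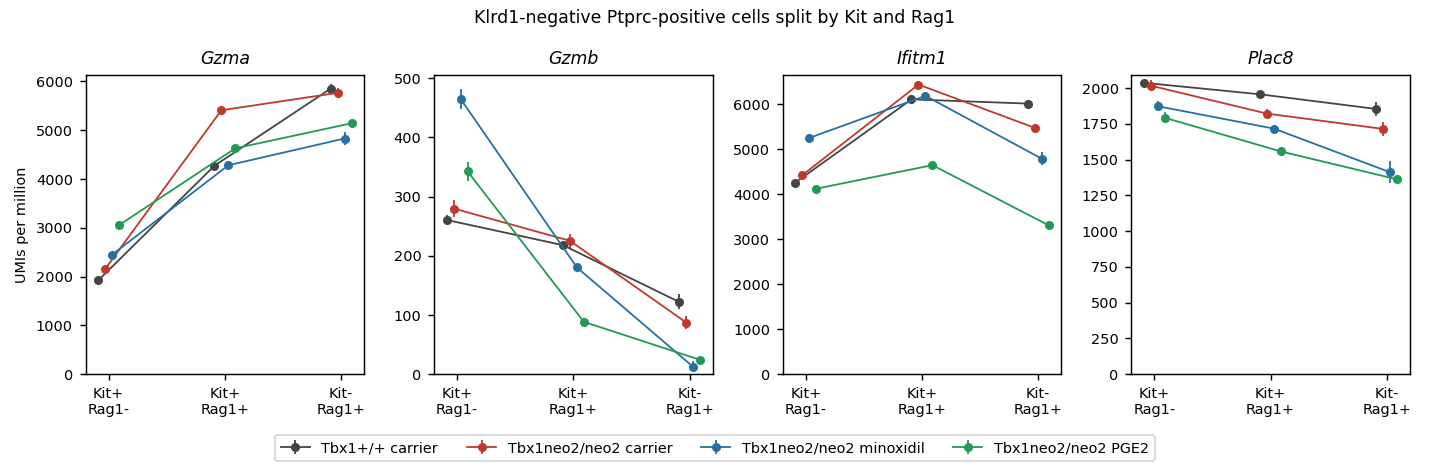
Level in CPM (linear axes from 0, a different range in each panel) of Gzma, Gzmb, Ifitm1 and Plac8 in Kit-positive Rag1-negative, Kit-positive Rag1-positive and Kit-negative Rag1-positive cells, all without a Klrd1 UMI, with 1 line per library and bars for the 95% Poisson interval. In the Kit-negative Rag1-positive cells Gzma is between 4831 and 5852 CPM, its highest in each library, and Gzmb is between 12.6 and 122 CPM, its lowest in each library.

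Cells in which several members were seen together were counted after thinning. Gzma, Nkg7, Ifitm1, Ifitm2 and Plac8 were all found in 67.1%, 71.0%, 67.3% and 65.2% of Rag1-positive cells, in 52.5%, 52.9%, 58.1% and 59.6% of Kit-positive cells and in 21.2%, 21.4%, 21.9% and 14.3% of Klrd1-positive cells. Gzma and Gzmb were found together in 39.0%, 37.1%, 30.7% and 20.1% of Rag1-positive cells and in 9.85%, 7.14%, 9.38% and 7.14% of Klrd1-positive cells. Gzma alone was in 93.5% to 98.0% of all thinned Rag1-positive cells, so these shares lie close to those of Gzmb by itself.

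The members were compared between genotypes in the Tbx1neo2/neo2 carrier and Tbx1+/+ carrier libraries. In Rag1-positive cells, 0 of 7 members were called, where 8.23% of all genes were. Gzma had a log2 ratio of 0.30 and Ccl5 of -0.92 (-2.0 to 0.03). In Klrd1-positive cells, 3 of 8 were called, Gzmb lower at -1.77 (-2.33 to -1.26), Nkg7 higher at 0.59 and Ccl5 higher at 0.76, where 4.10% of all genes were. Gzmb was found in only 7.14% to 12.9% of the thinned Klrd1-positive cells of a library, so its ratio rests on few cells. The Nkg7 and Ccl5 calls held under 8 and 9 of 14 alternatives, with ratios down to -0.43 and -0.37. Both were lost without the cell with the most UMIs of the member. Ccl4 and Xcl1, chemokines picked from the NK list, were at 588 against 53.7 CPM and at 196 against 69.3 CPM. How far single cells set these values was not tested. In Kit-positive cells, 1 of 9 was called, where 7.12% of all genes were, namely Il2rb at 2.48 against 0.992 CPM, a log2 ratio of 1.32 (0.60 to 2.03). This call was lost under 7 of 14 alternatives, with ratios down to 0.32, among them leaving out the cell with the most Il2rb UMIs and taking subsets that share no cell. All 6 mast cell genes tested were higher in the same Kit-positive cells, Cpa3 being at 414 against 156 CPM, and their part in the Il2rb value was not tested. T lineage genes were called higher in the Rag1-positive cells for 7 of 15, with Ptcra, the pre-T-cell receptor alpha chain, at 98.8 against 42.0 CPM.

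Minoxidil was compared with carrier within Tbx1neo2/neo2 embryos. In Rag1-positive cells, 0 of 7 members were called, where 6.43% of all genes were, and Gzma had a log2 ratio of -0.36. In Klrd1-positive cells, 3 of 8 were called, Nkg7 lower at -0.70, Ccl5 lower at -0.98 and Ifitm1 higher at 0.81, where 5.09% of all genes were. These values rest on 32 minoxidil and 42 carrier cells. In Kit-positive cells, 1 of 9 was called, Ccl5 lower at -1.53 (-1.69 to -1.37), where 8.46% of all genes were. Within the Kit-positive cells that had neither Rag1 nor Klrd1, Ccl5 was higher instead, at 42.0 against 25.4 CPM and a log2 ratio of 0.72, where 6.60% of all genes were called. The Kit-positive subset includes cells with a Klrd1 UMI, which the second pair of values leaves out. Gzmb was also called higher in the Kit-positive cells with neither Rag1 nor Klrd1, at 0.73, so that 2 of 7 members were called there. In Kit-positive Rag1-positive cells 0 of 7 were called. In Kit-negative Rag1-positive cells, Gzmb was called lower, at 12.6 CPM in 16 minoxidil cells, as 1 of 6 members. The share of all genes called in those cells is not given.

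PGE2 was compared with the same carrier library, so the results for the 2 drugs share their reference. Gzmb was called lower in Rag1-positive cells, at 76.2 against 182 CPM, a log2 ratio of -1.26 (-1.35 to -1.17) or 2.39-fold. It was the only one of 7 members called there, where 7.50% of all genes were. Ifitm1 followed at -0.51 and Ifitm2 at -0.28, neither called. The lower Gzmb level held under each of the 14 alternatives run. By stage, Gzmb had a log2 ratio of 0.29, not called, in Kit-positive Rag1-negative cells, where 6.92% of all genes were called. It had -1.35 (-1.44 to -1.25) in Kit-positive Rag1-positive cells, where 6.53% were called, and -1.85 (-2.12 to -1.57) in Kit-negative Rag1-positive cells. In the last of these, Ifitm1 was also called lower at -0.73, so that 2 of 6 members were called where 5.65% of all genes were. Of the T lineage genes, 5 of 15 were called higher in the PGE2 Rag1-positive cells, where 7.50% of all genes were called in either direction. Among them, Ptcra was at 214.5 against 98.8 CPM and Cd3e at 218 against 111 CPM. A link between these genes and Gzmb was not tested. Tyrobp was at 69.4 against 139 CPM. Within both groups of Rag1-positive cells taken apart by Kit, Gzmb was called lower.

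In the Klrd1-positive cells of the PGE2 library, 4 of 8 members were called, where 5.37% of all genes were. Gzma (-0.62), Ccl5 (-0.68) and Plac8 (-0.59) were lower. Gzmb was higher at 1.51 (0.97 to 2.10), but 87.9% of its UMIs lay in 1 cell, and without the top cell of each group the log2 ratio was -0.65. In Kit-positive cells, Gzmb (-0.86) and Ccl5 (-1.18) were the 2 of 9 members called lower, where 10.5% of all genes were called. Both had positive ratios in the Kit-positive cells with neither Rag1 nor Klrd1, where Ccl5 was at 51.1 against 25.4 CPM (1.01) and Gzmb had 0.29. Of the 15 calls between libraries, 2 held under all alternatives, the lower Gzmb of the PGE2 Rag1-positive cells and the lower Gzmb of the Tbx1neo2/neo2 carrier Klrd1-positive cells, and the others were lost under 1 to 8 of 14. The call in Klrd1-positive cells rests on few cells with Gzmb, as given above.

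**Figure D4:**
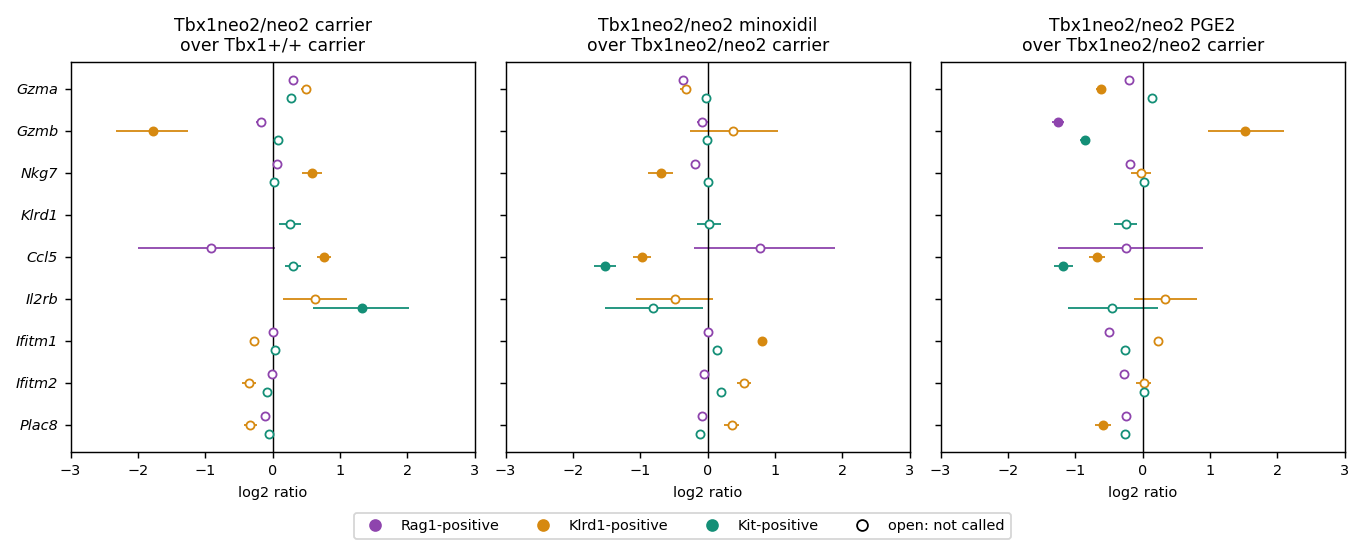
Log2 ratio of member levels between libraries in Rag1-positive, Klrd1-positive and Kit-positive cells, for the Tbx1neo2/neo2 carrier against the Tbx1+/+ carrier library and for each drug against the Tbx1neo2/neo2 carrier library, with bars for the 95% interval of counting error, filled points for calls and open points for values not called. Gzmb under PGE2 is at -1.26 in Rag1-positive cells.

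In mesenchymal, epithelial and endothelial cells, the counting intervals of Gzmb, Nkg7, Klrd1 and Il2rb overlapped those of the erythroid cells of the same library, which should lack them, apart from Nkg7 at 5.45 CPM in endothelial cells of the Tbx1+/+ carrier library. Gzma was above the erythroid interval at 40.9 CPM in the same endothelial cells, at 15.8 CPM in mesenchymal and 8.28 CPM in endothelial cells of the Tbx1neo2/neo2 carrier library, and in epithelial cells of the Tbx1+/+ carrier and PGE2 libraries. Of the other members, Ifitm2, Ifitm1, Plac8 and Ccl5 were above the erythroid level in at least 1 class. Ptprc-positive lymphoid cells held 66.5%, 75.7%, 80.4% and 89.3% of all Gzma UMIs. All hematopoietic gates together held 89.4%, 82.9%, 95.2% and 95.9% of them. Gzma was at 12.3, 4.5, 9.30 and 9.0 CPM in epithelial cells, in 5.04%, 2.44%, 3.81% and 2.55% of thinned cells. Erythroid cells had Gzma at 7.54, 3.62, 8.12 and 5.30 CPM, in 4.76%, 0.683%, 2.86% and 2.66% of thinned cells. The granulocytic gate, which took in Mpo-positive cells, had Gzma at 1324, 927, 1360.1 and 1012 CPM, and macrophages had 324, 61.0, 9.83 and 33.7 CPM. Kit-positive cells had 3192, 3864, 3805 and 4248 CPM, below the Rag1-positive cells and above the Klrd1-positive cells of the same library. The order for Gzma was thus Rag1-positive, Kit-positive and Klrd1-positive cells, then the Mpo-containing gate, then macrophages, with the other classes last, and the last steps were not separate, since macrophages of the minoxidil library were at the level of epithelial cells. Other Ptprc-positive lymphoid cells, with none of the 3 subset genes, ranged over libraries from 555 to 1588 CPM and overlapped the Klrd1-positive cells and the Mpo-containing gate.

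Ifitm2 was well above the erythroid level in every other class. Mesenchymal cells had 1117, 877, 1000.3 and 961 CPM, endothelial cells 526, 469.9, 517 and 536 CPM and epithelial cells 381, 353, 364 and 361 CPM, against 38.2, 54.4, 21.2 and 19.7 CPM in erythroid cells. Of all Ifitm2 UMIs, 16.9%, 45.7%, 19.8% and 13.3% were in mesenchymal cells. Mesenchymal levels were below those of Rag1-positive cells in each library.

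Ccl5 was found in epithelial cells at 18.2, 21, 32.7 and 31.1 CPM, which made up 20.8%, 20.4%, 51.0% and 44.3% of all Ccl5 UMIs. It was in 2.37%, 2.56%, 4.55% and 4.09% of thinned epithelial cells against 0%, 0.228%, 0% and 0.592% of erythroid cells. Within the epithelium, Ccl5 was almost confined to cells with Krt5, a keratin of basal and medullary epithelium, at 29.0, 37.9, 49.8 and 52.9 CPM against 0.93, 0, 0.18 and 0.51 CPM in cells without Krt5. The 0 UMIs in such cells of the Tbx1neo2/neo2 carrier library allow up to 0.327 CPM at the upper end of the exact Poisson interval. Cells without Psmb11, a proteasome subunit of cortical epithelium, had 49.6, 62.7, 146 and 124 CPM, and those with it 8.37, 11.9, 12.4 and 13.8 CPM.

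**Figure D5:**
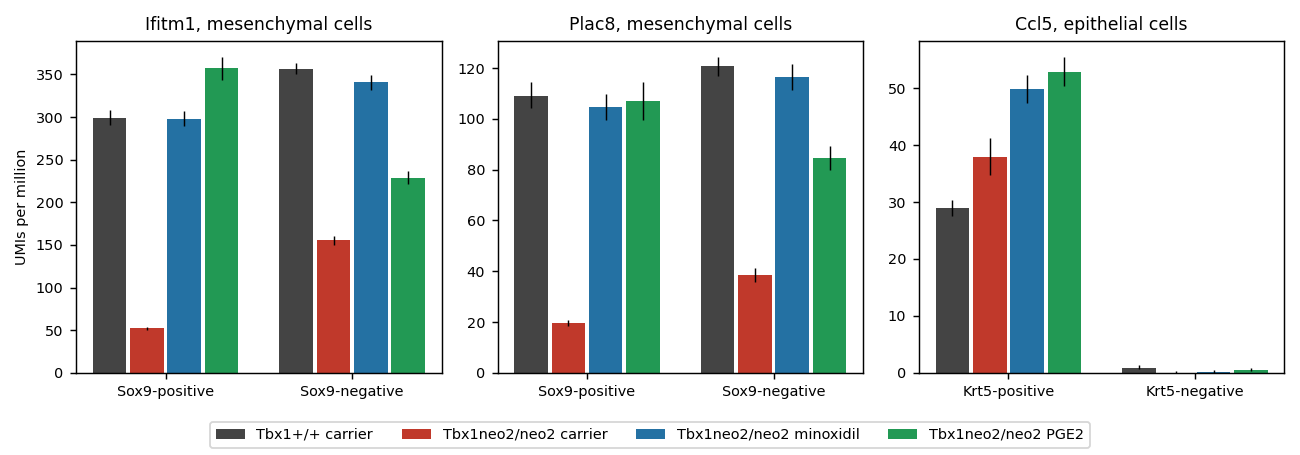
Level in CPM (bars from 0, a different range in each panel) of Ifitm1 and Plac8 in mesenchymal cells with and without a Sox9 UMI and of Ccl5 in epithelial cells with and without a Krt5 UMI, with 1 bar per library and lines for the 95% Poisson interval. Ifitm1 and Plac8 are lowest in the Tbx1neo2/neo2 carrier library in both kinds of mesenchymal cells, and Ccl5 is at least 29.0 CPM with Krt5 and at most 0.93 CPM without.

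Ifitm1 and Plac8 differed between libraries in mesenchymal cells, by 4.27-fold and 4.77-fold from the lowest to the highest. The same ranges were wider in endothelial cells, at 6.96-fold and 17.3-fold, and in macrophages, at 8.42-fold and 16.3-fold, which were fewer cells. Ifitm1 was at 337, 78.9, 320.2 and 273 CPM, in 57.3%, 14.0%, 51.4% and 46.9% of thinned cells. In erythroid cells, Ifitm1 was found in 13.9%, 4.56%, 12.1% and 4.44%. Plac8 was at 117, 24.5, 111 and 92.1 CPM, in 35.3%, 7.20%, 35.2% and 28.7% of mesenchymal cells against 3.9%, 2.28%, 2.14% and 1.18% of erythroid cells. The Tbx1neo2/neo2 carrier library was the low one for both genes, and the other 3 lay close together.

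Against Tbx1+/+ carrier, the Tbx1neo2/neo2 carrier mesenchymal cells had log2 ratios of -2.09 (-2.14 to -2.05) for Ifitm1 and -2.25 (-2.33 to -2.18) for Plac8. Minoxidil against carrier gave 2.02 (1.98 to 2.07) and 2.18 (2.10 to 2.26), and PGE2 against carrier 1.79 (1.74 to 1.84) and 1.91 (1.82 to 2.0). Of the 8 members tested in mesenchymal cells, 1, 2 and 2 were called higher and 4, 1 and 3 lower in these comparisons, where 12.1%, 11.7% and 10.6% of all genes were called higher and 10.7%, 11.7% and 12.8% lower. Gzma, found in 2.57% to 4.98% of thinned mesenchymal cells, was at 10.4, 15.8, 7.69 and 6.78 CPM. Sox9-positive cells, which carry the chondrogenic factor, were 31.7%, 70.3%, 45.7% and 33.5% of the mesenchymal cells. The split was made without thinning, at median depths of 16201.5, 13415, 30127.5 and 24818.5 UMIs, and the part of depth in it was not tested. In Sox9-positive cells, Ifitm1 was at 299, 52.0, 298 and 357 CPM, and in Sox9-negative cells at 356, 155, 341 and 229 CPM. Plac8 was at 109, 19.6, 104 and 107 CPM with Sox9 and at 121, 38.4, 116 and 84.5 CPM without. The Tbx1neo2/neo2 carrier library was the lowest for both genes in both kinds of cells. Gzma was at 9.73, 19.3, 9.10 and 7.51 CPM with Sox9 and at 10.7, 5.94, 6.38 and 6.39 CPM without, so that the Tbx1neo2/neo2 carrier library was the highest among Sox9-positive cells and not among Sox9-negative cells.

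Across the 39 combinations of cell group and library, members were compared by the correlation of log2 levels, which share library, depth and overlapping cells and are given as a description. Gzma went closely with Nkg7 (r = 0.98) and Ifitm1 (0.96), Ifitm1 with Plac8 (0.97) and Klrd1 with Il2rb (0.96), whereas Gzma and Klrd1 had r = 0.46. The gene nearest to the mean of the members was Ikzf2, a factor of the Ikaros family, at 0.98, followed by Nabp1 and Zbtb16, the PLZF factor of innate-like lymphocytes, at 0.98, and Ptprcap at 0.97. For single members, the nearest genes were Cd3g for Gzma (0.99), Ptprcap for Nkg7 (0.99), Slc22a3 for Gzmb (0.98), Klrb1b for Il2rb (0.99) and for Klrd1 (0.96), Tesc for Ccl5 (0.92), Fut8 for Ifitm1 (0.96), Mettl6 for Ifitm2 (0.97) and Nrgn for Plac8 (0.97).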

How the data were processed

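Droplet (10x) scRNA Seq was available for 4 libraries of E13 to 13.5 thymus, 1 per condition. The authors aligned reads to mm10 with Cell Ranger 5.0.1 and deposited raw UMI counts per gene and cell for the barcodes called as cells, and they used Seurat for their own later steps. Whether intronic reads were counted is not given in the sources used here. Lowly detected genes depend on depth, and UMI counts are molecules only as far as amplification errors allow.

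A minimum of 200 genes per cell and a mitochondrial share of 10% or less were required. Each was put in the class whose summed markers, scaled to the 99.5th percentile, were at least 0.1 and at least 3 times those of every other class, and cells with markers of 2 classes were left out in place of a doublet caller. Hematopoietic cells with both macrophage and granulocytic markers below 0.1 on that scale formed the lymphoid class. Subsets needed at least 1 UMI of Ptprc and of Rag1, Klrd1 or Kit. UMIs were summed per cell group, and genes with at least 20 UMIs over both groups were compared by the rule given with the results. Cells were also thinned to 5000 UMIs, which left out 30, 5, 0 and 4 Ptprc-positive cells. The members, the pathway lists (220 genes, of which 9 were not in the gene table) and the comparisons were chosen with earlier results of these data known. The genes named beside the members were those of these lists at 50 CPM or more with the largest ratios, up to 4 per list, together with the defining markers of a cell type. Tbx21, Ncr1, Prf1 and the genes used to split other classes (Sox9, Krt5, Psmb11) fall outside this rule, and these and the choice of examples among the genes it gave in any comparison were made after values were seen. The nearest genes were ranked by Pearson's r of log2 CPM (10 added) over 39 points of at least 20 cells. T-cell receptor gamma and delta genes were not analysed here.

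The rule was run on simulated Poisson counts without spread between cells or embryos. The shares recovered and called therefore describe counting error only and are no error rate for these libraries. With 200 genes changed 3-fold, 100% were recovered among 12371 genes for PGE2 against carrier in Rag1-positive cells, with 30 of 12171 unchanged genes called, and 97.5% among 8166 genes in Klrd1-positive cells, with 29 of 7966 called. Alternatives changed the mitochondrial limit, a minimum of UMIs per cell, the class gate, the gate UMIs, the thinning, the scaling (TMM from edgeR, used for the factors only) and the cells with the most UMIs. Python 3.11.15 with numpy 2.4.6, scipy 1.17.1, pandas 2.3.3 and matplotlib 3.10.9 was used, with R 4.3.3 and edgeR 4.0.16.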

Additional observations from a re-analysis of the deposited data

Results flagged for a closer look

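Gzmb had opposite directions between cell subsets under the same contrast, PGE2 against carrier in Tbx1neo2/neo2 embryos. The log2 ratio was -1.26 in Rag1-positive cells and -0.86 in Kit-positive cells but 1.51 in Klrd1-positive cells. The difference between the subsets was not tested, since there was 1 library per condition. In the Klrd1-positive cells of the PGE2 library, 1 cell held 87.9% of the Gzmb UMIs.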

How the results depend on the processing

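No paired analysis was possible because there was 1 library per condition, and no spread between embryos could be estimated. Between Klrd1-positive Rag1-negative and Rag1-positive Klrd1-negative cells, 22 of 27 member calls held under every alternative, between the stages 8 of 14, and for Ifitm1 and Plac8 in mesenchymal cells 6 of 6. Between libraries, 2 of 15 held. The causes of the changes below were not tested.

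The Klrd1-positive share of the Tbx1+/+ carrier library was 4.97% at a mitochondrial limit of 5%, 4.64% among Ptprc-positive cells of any class, 4.32% with at least 2 UMIs of the subset gene, 5.06% when thinned to 2500 UMIs and 10.3% without thinning. With the granulocytic list without Mpo and Elane, which was chosen after the data had been seen, it was 5.18%, or 8.66% without thinning. It was 4.05% for the Tbx1neo2/neo2 carrier library among cells of any class and 7.32% for the minoxidil library without thinning. The members called over the 3 subsets numbered 4 for genotype, 4 for minoxidil and 7 for PGE2. At a mitochondrial limit of 5% they were 7 for genotype and 4 for PGE2. Without the cell with the most UMIs of the member, also chosen after the data had been seen, they were 2 for genotype and 4 for PGE2. For minoxidil they were 7 both among cells of any class and with the shortened granulocytic list.

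Directions turned as follows, in log2 ratios. In Rag1-positive cells, the shortened granulocytic list gave 0.82 for Ccl5 by genotype and -1.37 for Ccl5 under minoxidil, cells of any class gave -1.71 for the latter, and a mitochondrial limit of 5% gave 0.63 for Gzmb under minoxidil. In Klrd1-positive cells of any class, Nkg7 was -0.43 by genotype, 0.64 under minoxidil and 1.11 under PGE2. In the same cells Ccl5 was 0.29 under minoxidil and 0.32 under PGE2, Gzma 0.16 and Plac8 0.50 under PGE2. When Klrd1 was read after thinning, Ccl5 was -0.37 by genotype and 0.14 under minoxidil, Gzma 1.07 under minoxidil and 0.15 under PGE2, and under PGE2 Gzmb was -0.11 and Ifitm2 -0.64. A limit of 5% gave -1.07 for Ifitm1 and -0.75 for Ifitm2 under PGE2, at least 2 UMIs gave -1.60 for Gzmb under minoxidil, and leaving out the top cell gave -0.65 for Gzmb under PGE2. In Kit-positive cells without a cell shared with the other subsets, Ccl5 was -1.01 by genotype, 0.72 under minoxidil and 1.01 under PGE2, and Gzmb 0.73 under minoxidil and 0.29 under PGE2. A limit of 5% gave -0.79 for Gzmb by genotype and 1.06 under minoxidil, and thinned gates gave 1.14 for Klrd1 under PGE2. Between the subsets, thinned gates gave 0.72 for Ifitm1 in the minoxidil library. Klrd1-positive cells at a limit of 5% numbered 47, 14, 10 and 25, which limits what these values can show.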
